A study of Mus musculus with 2 samples.

Results

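The genes described here are 31 genes of sterol and fatty acid synthesis, of 22587 gene symbols in the deposited matrices. They were chosen by name, 21 for the sterol branch and 10 for the fatty acid branch, with earlier results of these data known. A gene was kept if both libraries together held 20 or more of its UMIs. All 31 passed that limit. A UMI, or unique molecular identifier, marks 1 captured mRNA molecule, so a value counts molecules and not reads.

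Sterol synthesis joins acetyl-CoA units into mevalonate, isoprenoids and squalene, and then closes and trims the sterol rings until cholesterol is reached. Fatty acid synthesis starts from the same acetyl-CoA, builds saturated chains, and then lengthens them and adds double bonds. Both branches are classical targets of the SREBP transcription factors, which INSIG proteins keep inactive in the endoplasmic reticulum while sterols are plentiful. The brain makes its own cholesterol, largely in glia, and the adult neural stem cells of the hippocampus share much of their gene expression with astrocytes.

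OPA1 is a GTPase of the inner mitochondrial membrane that is needed for its fusion and cristae. Control (CT) and Opa1 cKO mice carried Nestin-CreERT2 and ROSA26YFP on a C57/BL/6 background, were given tamoxifen (TAM) at 8 weeks and were used at 12 weeks of age, 4 weeks post-TAM. Cre is driven by the Nestin promoter, and YFP marks the cells in which it acted and their progeny. Living YFP+ hippocampal cells were sorted, cells of several mice per genotype were pooled, and 1 library per genotype was made with the 10x Genomics 3′ assay. The strain label names Opa1-Flox for both libraries, while the protocol describes the control as negative for it.

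Total depth was 10799936 UMIs over 4634 barcodes for CT and 18662032 UMIs over 6475 barcodes for Opa1 cKO. Filters on genes, mitochondrial share and YFP left 1790 and 3764 cells, and 9 of their barcodes occurred in both libraries. The cells fell into 8 clusters, which were named from marker genes. NSC pool-like cells, an astrocyte-like class, were clusters 0 and 1 joined. They held 1350 CT and 2559 Opa1 cKO cells with median depths of 2494 and 2968 UMIs. Whether these cells were quiescent stem cells or astrocytes was not tested. Hopx, a marker listed for this class, was instead among the leading genes of the activated NSC-like cluster. Cluster 1, with 4 cells of CT and 1791 of Opa1 cKO, was led by Gdf15, Slc7a11, Nupr1 and Hmox1, so library and cluster cannot be told apart there. Nupr1 is both a listed marker of the NSC pool and one of the stress response genes summed below. All 17 NSC pool markers were detected in both libraries and summed to 81972 CPM in CT against 73746 CPM in Opa1 cKO, where CPM is the number of UMIs of a gene per 1000000 UMIs of the same cells. Of the markers of other classes in these cells, those of microglia summed to 68.6 and 119 CPM, those of oligodendrocytes to 380.4 and 424 CPM, and those of oligodendrocyte precursors to 109.9 and 324 CPM. All 8 oligodendrocyte markers were detected in both libraries, 8 and 7 of 8 microglial markers (Tmem119 at 0 in Opa1 cKO), and 4 and 5 of 7 precursor markers. Pdgfra and Gpr17, which define precursors, were at 0 in both, and Olig1 made up most of the precursor sum with 87.7 and 283 CPM. Their part in the values that follow was not tested. Opa1 itself had 69 UMIs or 18.6 CPM (14.5 to 23.6) in CT NSC pool-like cells and 66 UMIs or 7.83 CPM (6.06 to 9.96) in Opa1 cKO. A 3′ count also reads transcripts that lack the deleted exons, so this is a limited check of the labels.

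With 1 library per genotype there is no replicate and no test between genotypes. Intervals are at 95% and cover counting error only, and a gene is counted as higher or lower where the CPM differ by 1.5-fold or more. In NSC pool-like cells, sterol synthesis genes were lower in Opa1 cKO along nearly the whole pathway, and of the fatty acid genes Acly, Fasn and Scd1 were lowest against CT. The 21 sterol genes together had 4168 CPM in CT (4102 to 4234) and 2979 CPM in Opa1 cKO (2942 to 3016), with a log2 ratio of Opa1 cKO over CT of -0.48 (-0.51 to -0.46). The 10 fatty acid genes had 2120.3 CPM (2074 to 2168) and 1826 CPM (1797 to 1855), a log2 ratio of -0.22 (-0.26 to -0.18). Of the sterol genes, 20 of 21 had a log2 ratio below 0, with 17 intervals wholly below 0, 1 above 0 and 3 that held 0. Of the fatty acid genes, 9 of 10 had a ratio below 0, with 7 intervals below 0 and 3 that held 0. Ratios below 0 and intervals that left out 0 were not counted over all genes.

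A difference of 1.5-fold or more was seen for 7 sterol and 3 fatty acid genes, each lower in Opa1 cKO, and for none in the other direction. Among all 11267 genes with 20 or more UMIs in these cells, 13.3% were lower and 14.2% were higher by that much, and the median log2 ratio was 0.04. The medians were -0.40 for the sterol and -0.34 for the fatty acid genes. Low counts widen the ratios of rare genes, so the same was read over the 5438 genes with 300 or more UMIs, of which 6.93% were lower and 14.3% higher. In that range 5 of 19 sterol and 3 of 10 fatty acid genes were lower. The median log2 ratio of those 5438 genes was 0.14, and relative to it the sterol sum stood at -0.63 and the fatty acid sum at -0.36.

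**Figure D1:**
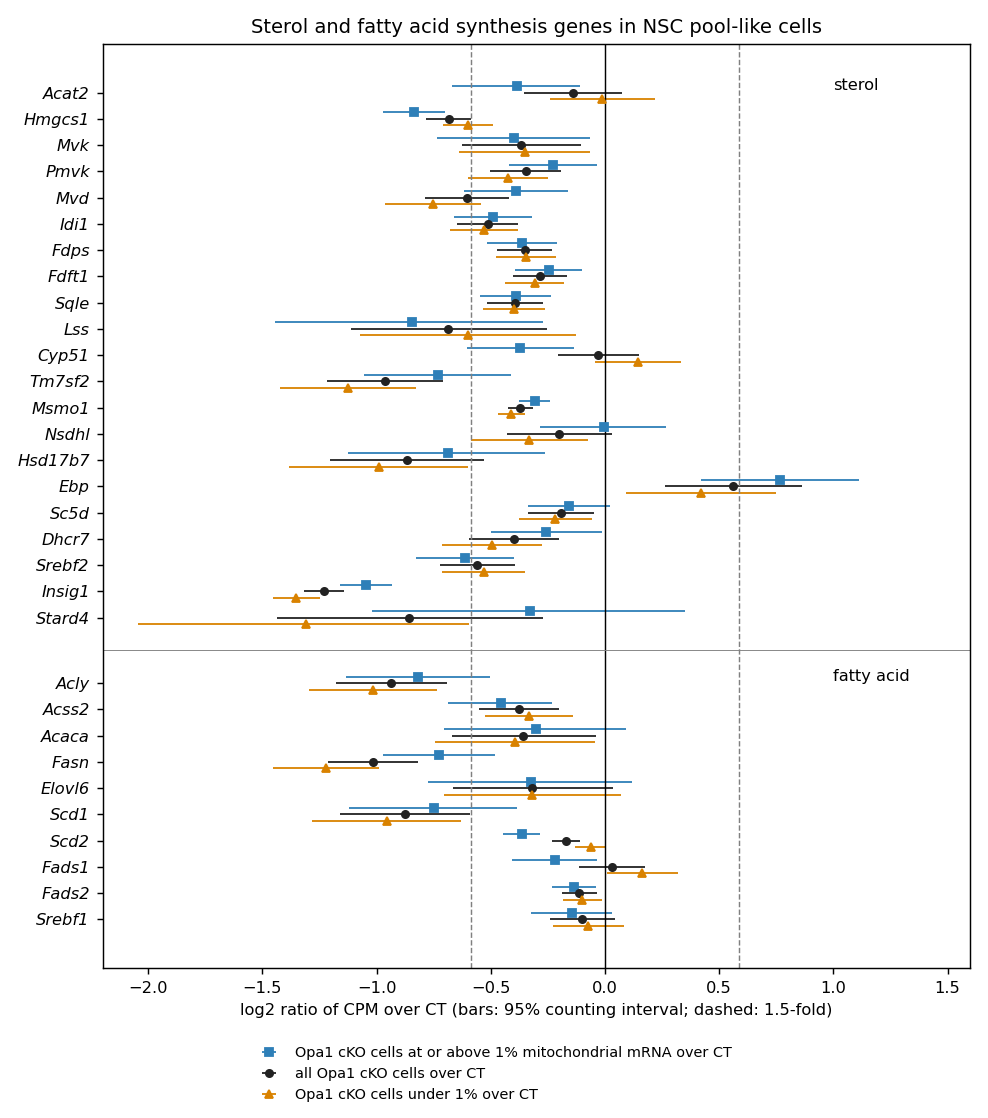
Log2 ratio of CPM over CT for each of the 31 genes in NSC pool-like cells, for all Opa1 cKO cells (circles), those at or above 1% mitochondrial mRNA (squares) and those under 1% (triangles), with bars for 95% counting intervals and dashed lines at 1.5-fold. Over all Opa1 cKO cells Insig1 lies lowest at -1.23, and of the sterol genes only Ebp has an interval above 0.

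The mevalonate steps turn acetyl-CoA into the isoprenoid units from which squalene is made. The 7 genes of these steps summed to 1199 CPM in CT against 856 CPM in Opa1 cKO, with a log2 ratio of -0.49 (-0.54 to -0.43). Hmgcs1, the cytosolic HMG-CoA synthase (GENCODE M21, mm10, chr13:119690379-119708260, plus strand), had 379.8 CPM (360.2 to 400.2) in CT against 236 CPM (226 to 247) in Opa1 cKO, with a log2 ratio of -0.69 (-0.78 to -0.59). Mvd, which decarboxylates mevalonate pyrophosphate, had 110.1 CPM in CT against 72.4 CPM in Opa1 cKO, with a ratio of -0.61 (-0.79 to -0.42). These were the 2 genes of the group past 1.5-fold. The counting intervals of their CPM did not overlap between the libraries, which was not counted over all genes. Idi1, the isopentenyl diphosphate isomerase, came close at 201 and 140.8 CPM with a ratio of -0.51 (-0.65 to -0.38). Fdps, which makes farnesyl diphosphate, had 240.3 CPM in CT against 188 CPM in Opa1 cKO, with a ratio of -0.35 (-0.47 to -0.23). The kinases of the route were also lower in Opa1 cKO, but by less than 1.5-fold. Mvk, the mevalonate kinase, had 52.1 and 40.3 CPM with a ratio of -0.37 (-0.63 to -0.11). Pmvk, the phosphomevalonate kinase, had 142 and 112 CPM with a ratio of -0.35 (-0.50 to -0.19). Acat2, the thiolase that makes acetoacetyl-CoA in the cytosol, did not differ beyond counting error, with 73.2 and 66.3 CPM and a ratio of -0.14 (-0.35 to 0.07).

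From squalene onward the picture was less even. The 11 genes of these steps summed to 2235 CPM in CT against 1774 CPM in Opa1 cKO, with a log2 ratio of -0.33 (-0.37 to -0.29). Msmo1, the methylsterol monooxygenase, alone gave 28.4% of all sterol branch UMIs in CT and 30.7% in Opa1 cKO. It had 1183 CPM (1148 to 1218) in CT against 914 CPM (894 to 935) in Opa1 cKO, with a ratio of -0.37 (-0.42 to -0.32). Without Msmo1 the ratio of the branch sum was -0.53 (-0.57 to -0.50), so this gene narrowed the difference of the sum.

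Past 1.5-fold stood Tm7sf2, Hsd17b7 and Lss. Tm7sf2, a sterol reductase, had 65.1 CPM (57.1 to 73.8) in CT against 33.3 CPM (29.6 to 37.5) in Opa1 cKO, with a log2 ratio of -0.96 (-1.22 to -0.71). Its exons overlap those of Vps51 on the same strand, which may affect its counts. Hsd17b7, a keto-sterol reductase, had 36.2 and 19.8 CPM with a ratio of -0.87 (-1.20 to -0.53). Lss, the lanosterol synthase that closes the rings, had 21.6 and 13.4 CPM with a ratio of -0.69 (-1.11 to -0.26). Lss was captured with few UMIs, and its interval reaches from a small to a more than 1.5-fold difference. Smaller differences with intervals below 0 were seen at the entry to the branch and at its end. Fdft1, the squalene synthase, had 246 and 202 CPM with a ratio of -0.28 (-0.40 to -0.17). Sqle, the squalene epoxidase, had 230.3 and 175 CPM with a ratio of -0.40 (-0.52 to -0.27). Exons of Fdft1 overlap those of Ctsb on the other strand. Sc5d, a sterol desaturase, had 161 and 140.8 CPM with a ratio of -0.19 (-0.34 to -0.05). Dhcr7, which reduces the last intermediate of one of the routes to cholesterol, had 91.8 and 69.5 CPM with a ratio of -0.40 (-0.60 to -0.20).

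Cyp51 and Ebp departed from the rest over all NSC pool-like cells. Nsdhl had a ratio near that of Sc5d, with an interval that held 0. Cyp51, the lanosterol demethylase, was at 103 CPM (93.3 to 114) in CT against 101 CPM (94.7 to 108) in Opa1 cKO, with a log2 ratio of -0.03 (-0.20 to 0.15). In cluster 0 alone it was lower by 1.5-fold, at 103 and 67.7 CPM with a ratio of -0.61 (-0.88 to -0.34). Nsdhl, a sterol dehydrogenase that acts with Msmo1, had 64.8 and 56.4 CPM with a ratio of -0.20 (-0.43 to 0.03). Ebp, the sterol isomerase, was the one sterol gene higher in Opa1 cKO, with 32.4 CPM (26.9 to 38.7) in CT, 47.7 CPM (43.2 to 52.6) in Opa1 cKO and a ratio of 0.56 (0.26 to 0.86). Taken relative to the median of 0.14 its direction stayed the same.

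Insig1, Srebf2 and Stard4 together had a log2 ratio of -1.07, against -0.38 for the sum of the 18 sterol enzymes. Insig1 gave 2166 of the 2718 CT UMIs of these 3 genes. The ratios of Srebf2 and Stard4 lay within the range of the single enzymes, so the wider gap was that of Insig1. Insig1, which holds the SREBP escort in the endoplasmic reticulum and is itself an SREBP target (chr5:28071363-28078662, plus strand), had 585 CPM (560.4 to 610) in CT against 249.5 CPM (239 to 260.4) in Opa1 cKO. Its log2 ratio was -1.23 (-1.32 to -1.14), or 2.34-fold lower. Among 5437 genes with 300 or more UMIs in these cells, 20 had a lower ratio than Insig1, which is 0.368% of them. Srebf2, the SREBP of the sterol genes, had 136 and 92.4 CPM with a ratio of -0.56 (-0.72 to -0.40), just short of 1.5-fold. Stard4, a sterol transfer protein, had only 47 CT UMIs, 12.7 and 7.0 CPM and a ratio of -0.86 (-1.44 to -0.27). Without Insig1 the ratio of the sterol sum was -0.39 (-0.42 to -0.36), so the lower sum did not rest on that gene alone.

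The fatty acid genes differed by step over all NSC pool-like cells, less so in cluster 0 alone. The 2 genes of acetyl-CoA supply summed to 183 CPM in CT against 124 CPM in Opa1 cKO, with a log2 ratio of -0.57 (-0.71 to -0.43), and the 2 genes of chain synthesis to 145 and 82.1 CPM, a ratio of -0.82 (-0.99 to -0.66). The 5 genes of elongation and desaturation, at 1630.0 and 1469 CPM, had a ratio of -0.15 (-0.19 to -0.11). In cluster 0, which both libraries share, the ratios of the 3 steps were -0.66 (-0.86 to -0.46), -0.57 (-0.80 to -0.35) and -0.45 (-0.51 to -0.39).

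Acly, the citrate lyase that makes cytosolic acetyl-CoA, had 70.2 CPM (61.9 to 79.3) in CT against 36.7 CPM (32.7 to 41.0) in Opa1 cKO, with a log2 ratio of -0.94 (-1.18 to -0.69). Fasn, the fatty acid synthase (chr11:120805846-120824547, minus strand), had 109 CPM (98.9 to 121) in CT against 54.1 CPM (49.3 to 59.3) in Opa1 cKO, with a ratio of -1.01 (-1.21 to -0.82) or 2.02-fold lower. Scd1, a desaturase that makes oleic acid, had 50.5 CPM (43.5 to 58.3) and 27.5 CPM (24.1 to 31.3), a ratio of -0.87 (-1.16 to -0.59). For each of these 3 genes the intervals of the libraries did not overlap, which was also not counted over all genes. Together they had 230.01 CPM in CT against 118 CPM in Opa1 cKO, with a ratio of -0.96 (-1.09 to -0.83). Acss2, which makes acetyl-CoA from acetate, had 113 and 86.9 CPM with a ratio of -0.38 (-0.55 to -0.20). Acaca, the acetyl-CoA carboxylase that makes malonyl-CoA, had 35.9 and 28.0 CPM with a ratio of -0.36 (-0.67 to -0.04).

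Scd2 and Fads2 held most of the fatty acid UMIs and differed little over all NSC pool-like cells. The log2 ratio of the fatty acid sum, -0.22 with all 10 genes, was -0.25 (-0.30 to -0.20) without Scd2. Without Scd2 and Fads2 it was -0.36 (-0.43 to -0.29). Scd2, the main stearoyl-CoA desaturase of brain (chr19:44293674-44306864, plus strand), had 859.8 CPM (830.2 to 890.2) in CT against 765 CPM (746 to 784) in Opa1 cKO, with a log2 ratio of -0.17 (-0.23 to -0.11). In cluster 0 alone Scd2 passed 1.5-fold, with 861 CPM in CT against 546 CPM in Opa1 cKO and a ratio of -0.66 (-0.75 to -0.56). Scd2 is closely related to Scd1, and how reads that fit both were counted was not examined. Fads2, the desaturase that starts the route to long polyunsaturated fatty acids, had 539 and 499 CPM with a ratio of -0.11 (-0.19 to -0.03). Fads1, the next desaturase of that route, had 151 and 155 CPM with a ratio of 0.03 (-0.11 to 0.18). Its sign turned to -0.11 relative to the median of genes with 300 or more UMIs. In cluster 0 the Fads1 ratio was -0.45 (-0.66 to -0.24), where the median of all genes with 20 or more UMIs was -0.13. Elovl6, which lengthens the product of Fasn, had 28.9 and 23.1 CPM with a ratio of -0.32 (-0.67 to 0.03). Srebf1, the SREBP of the fatty acid genes, had 162 and 151 CPM with a ratio of -0.10 (-0.24 to 0.04), an interval that leaves out a difference of 1.5-fold.

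The differences were also seen in the share of cells with a UMI after each cell had been thinned to 1500 UMIs, with 93 CT and 198 Opa1 cKO NSC pool-like cells too shallow to use. Insig1 UMIs occurred in 47.5% (44.7 to 50.3) of the CT cells against 27.9% (26.1 to 29.8) of the Opa1 cKO cells, against 59.2% and 42.5% before thinning. Fasn was found in 15.5% (13.6 to 17.6) and 7.84% (6.78 to 8.99), against 24.5% and 15.7% before thinning. Ebp went the other way, with 4.53% (3.45 to 5.84) and 6.99% (5.99 to 8.09), against 7.70% and 13.9% before thinning. Free RNA can give such UMIs to cells that do not make the mRNA. In mural-like cells, thinned alike, Insig1 occurred in 9.76% of 41 CT cells and 12.9% of 101 Opa1 cKO cells, and Fasn in 4.88% and 1.98%, below the NSC pool-like cells of the same library. For Ebp the mural-like shares, 14.6% (5.57 to 29.2) and 8.91% (4.16 to 16.2), were not below those of NSC pool-like cells. Its mural-like level, 73.5 CPM (38.0 to 128) in CT and 64.3 CPM (40.3 to 97.3) in Opa1 cKO, was not below theirs either. Mural-like cells thus give no gauge of background for Ebp, and its shares cannot be separated from background. The median cell had 3922 CPM of sterol genes in CT (quartiles 2469 and 5673) and 2756 CPM in Opa1 cKO (1744 and 4141). The quartile ranges of the libraries overlapped widely. Under 1% of the cells of either library, 0.889% and 0.782%, had no sterol UMI at all.

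Promoter sequences from RefSeq (GRCm38.p6) were at hand for 24 of the 31 genes, each from 250 bases before to 50 after the start. They were searched on both strands for CCAAT, the NF-Y box, and for CACNCCAC, the core of a sterol regulatory element, since NF-Y is known to act with SREBPs. The NF-Y box was found in 16 of 17 sterol and 4 of 7 fatty acid genes, against 43.2% of 9005 genes with 20 or more UMIs in NSC pool-like cells and 41.1% of all 27025 genes of the table. The sterol element core was found in Acat2, Hmgcs1 and Insig1, or 3 of 17 sterol genes, and in 0 of 7 fatty acid genes, against 7.53% of the 9005. Other motifs were GGGCGG in 16 of 17 and 4 of 7 (70.7% of the 9005), the E-box CACGTG in 4 of 17 and 0 of 7 (11.9%), and TTGCATCA, a core bound by ATF4, in 0 of 17 and 0 of 7 (0.666%). A match is a string of letters and not a shown binding site. Shown here are the 250 bases before the start for 3 genes lower in Opa1 cKO and for Ebp, which was higher, to set their motifs side by side. Capitals mark CCAAT or its reverse complement and, in Hmgcs1, the sterol element core at position -136 from the start. The windows are chr13:119690101-119690350 on the plus strand for Hmgcs1, and on the minus strand chr8:122443423-122443672 for Mvd, chr11:120824548-120824797 for Fasn and chrX:8193513-8193762 for Ebp.
Hmgcs1: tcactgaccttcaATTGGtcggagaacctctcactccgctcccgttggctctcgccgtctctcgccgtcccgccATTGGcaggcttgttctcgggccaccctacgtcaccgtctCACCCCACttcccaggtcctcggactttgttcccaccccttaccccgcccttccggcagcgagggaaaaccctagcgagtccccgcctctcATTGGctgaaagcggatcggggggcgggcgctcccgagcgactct
Mvd: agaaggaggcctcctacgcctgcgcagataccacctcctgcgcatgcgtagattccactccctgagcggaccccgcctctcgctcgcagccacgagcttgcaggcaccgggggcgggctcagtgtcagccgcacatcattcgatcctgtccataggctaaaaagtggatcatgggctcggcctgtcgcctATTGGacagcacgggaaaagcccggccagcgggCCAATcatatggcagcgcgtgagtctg
Fasn: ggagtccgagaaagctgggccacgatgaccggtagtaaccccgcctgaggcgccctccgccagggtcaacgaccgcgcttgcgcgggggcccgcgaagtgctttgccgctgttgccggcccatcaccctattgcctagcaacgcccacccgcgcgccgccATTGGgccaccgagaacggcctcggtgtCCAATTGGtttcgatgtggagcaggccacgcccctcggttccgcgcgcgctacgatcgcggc
Ebp: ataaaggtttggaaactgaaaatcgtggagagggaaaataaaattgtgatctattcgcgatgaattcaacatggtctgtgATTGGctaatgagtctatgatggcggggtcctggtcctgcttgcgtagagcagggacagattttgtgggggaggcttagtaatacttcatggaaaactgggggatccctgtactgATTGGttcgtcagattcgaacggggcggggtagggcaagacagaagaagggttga
Hmgcs1 has NF-Y boxes at -237, -176 and -45, Mvd at -60 and -27, Ebp at -170 and -55, and Fasn at -90, -62 and -59, where the last pair overlap on opposite strands. Genes on both sides of the comparison thus hold the box, Ebp as well as Hmgcs1, Mvd and Fasn.

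The mitochondrial share of a cell was taken as the percentage of its UMIs from the 13 mitochondrially encoded mRNAs, with a cell cut at 1%. In Opa1 cKO, 61.7% (59.7 to 63.6) of NSC pool-like cells were under 1%, 1578 cells, while 981 were at or above it and 3 CT cells were under it. The cut is a point on a range, and 734 Opa1 cKO cells lay between 0.5% and 2%. Genes of the integrated stress response (ISR), a 12-gene list, summed to 1473 CPM in CT, 2574 CPM in Opa1 cKO cells at or above 1% and 7556 CPM in those under it.

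The sterol genes had a similar summed CPM in both groups of Opa1 cKO cells. They summed to 3060 CPM (2999 to 3121) at or above 1% and 2930.4 CPM (2884 to 2977) under it, log2 ratios over CT of -0.45 (-0.48 to -0.41) and -0.51 (-0.54 to -0.48). At or above 1%, 6 sterol genes were lower and 1 higher than in CT by 1.5-fold, against 12.7% and 4.88% of 10564 genes. Under 1%, 7 were lower and 0 higher, against 15.6% and 20.4% of 10894 genes. The fatty acid genes summed to 1706 CPM (1661 to 1752) and 1898 CPM (1861 to 1936), log2 ratios of -0.31 (-0.36 to -0.26) and -0.16 (-0.20 to -0.12), with 3 of 10 lower and 0 higher in each group. Insig1 had 585 CPM in CT, 283 CPM (-1.05, -1.16 to -0.93) at or above 1% and 229 CPM (-1.35, -1.45 to -1.25) under it. Insig1 was thus lower than in CT also in the cells at or above 1%, whose median share of 4.75% lay near the 5.23% of CT. Fasn had 109, 66.1 and 46.9 CPM in the same order, and Tm7sf2 65.1, 39.2 and 29.8 CPM. Hmgcs1 ran the other way within Opa1 cKO, with 213 CPM at or above 1% and 250.3 CPM under it. The median log2 ratio of all genes between those 2 groups was also above 0, at 0.18.

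Set directly against each other, Opa1 cKO cells under 1% over those at or above it, the sterol sum had a log2 ratio of -0.06 (-0.10 to -0.03) and the fatty acid sum 0.15 (0.11 to 0.20). The fatty acid ratio turned to -0.03 with a cut at 0.5% and to -0.07 relative to the median of genes with 300 or more UMIs. The median over all genes with 20 or more UMIs was 0.18, above the sterol ratio and within the intervals of the fatty acid sum and of Hmgcs1. Of the 31 genes only Stard4 passed 1.5-fold, at -0.98 (-1.78 to -0.20) on 59 UMIs, while 6.07% of 10768 genes were lower and 15.8% higher. Intervals wholly above 0 were those of Cyp51 at 0.51 (0.30 to 0.73), Fads1 at 0.38 (0.21 to 0.56), Acat2 at 0.37 (0.11 to 0.64), Scd2 at 0.30 (0.23 to 0.38) and Hmgcs1 at 0.23 (0.10 to 0.37). Intervals wholly below 0 were those of 8 sterol genes and 1 fatty acid gene. Among them were Fasn at -0.49 (-0.77 to -0.22), Tm7sf2 at -0.40 (-0.74 to -0.04), Mvd at -0.36 (-0.60 to -0.13) and Insig1 at -0.31 (-0.43 to -0.18). Intervals that left out 0 were not counted over all genes in this comparison.

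**Figure D2:**
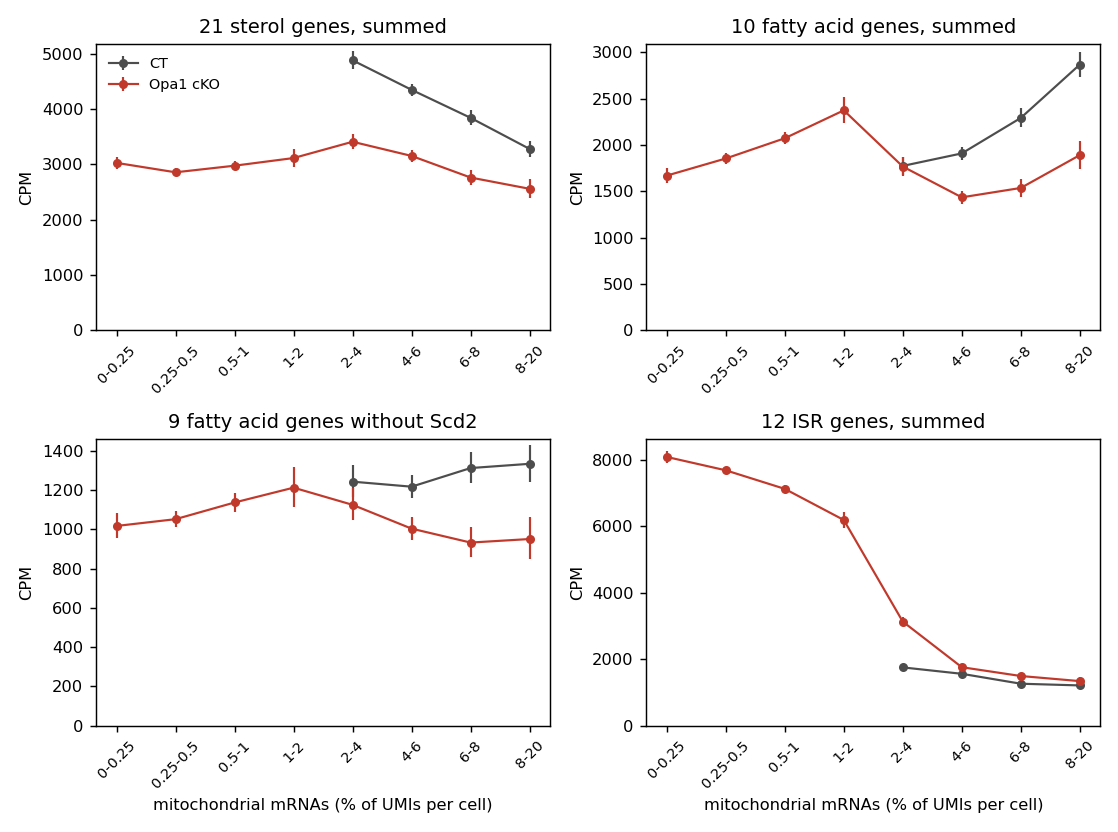
Summed CPM in NSC pool-like cells of the 21 sterol genes, the 10 fatty acid genes, the 9 fatty acid genes without Scd2 and the 12 ISR genes, by range of mitochondrial share, for CT and Opa1 cKO (points with 95% counting intervals, ranges with 20 or more cells). From 2% up, each CT sterol sum lies above the Opa1 cKO sum of the same range.

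Within finer ranges the sterol gap was present wherever both libraries had 20 or more cells. CT sterol sums were 4878, 4345, 3839 and 3277 CPM in cells of 2 to 4%, 4 to 6%, 6 to 8% and 8 to 20%. Opa1 cKO sums in those ranges were 3407, 3151, 2761 and 2558 CPM, giving log2 ratios of -0.52, -0.46, -0.48 and -0.36, each with an interval below 0. Over these 4 ranges the sterol sum of both libraries was lower in cells with a higher mitochondrial share. Below 2%, where only Opa1 cKO had enough cells, the sums lay between 2856 and 3113 CPM with no steady order, while the ISR sum went from 8082 CPM under 0.25% to 6185 CPM at 1 to 2%.

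Insig1 and Hmgcs1 followed the branch. Insig1 had ratios of -1.23, -0.98, -1.12 and -0.91 over the 4 shared ranges. Hmgcs1 had 437, 386, 359 and 329 CPM in CT against 268, 193, 184 and 178 CPM in Opa1 cKO, and for both genes each of the 4 ratios had an interval below 0. The fatty acid sum did not, with ratios of -0.01, -0.41, -0.58 and -0.60. Without Scd2 they were -0.14, -0.28, -0.49 and -0.49, and those of Fads2 were -0.06, -0.06, -0.26 and -0.50. In CT, Scd2 was higher in each higher range, at 533, 693, 981 and 1535 CPM. In Opa1 cKO it was 643, 433, 605 and 941 CPM in the same ranges and 654, 804, 937 and 1162 CPM in the 4 ranges below 2%. Scd2 was therefore higher than CT at 2 to 4% (0.27, 0.07 to 0.47) and lower in the other 3 ranges, at -0.68, -0.70 and -0.71.

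**Figure D3:**
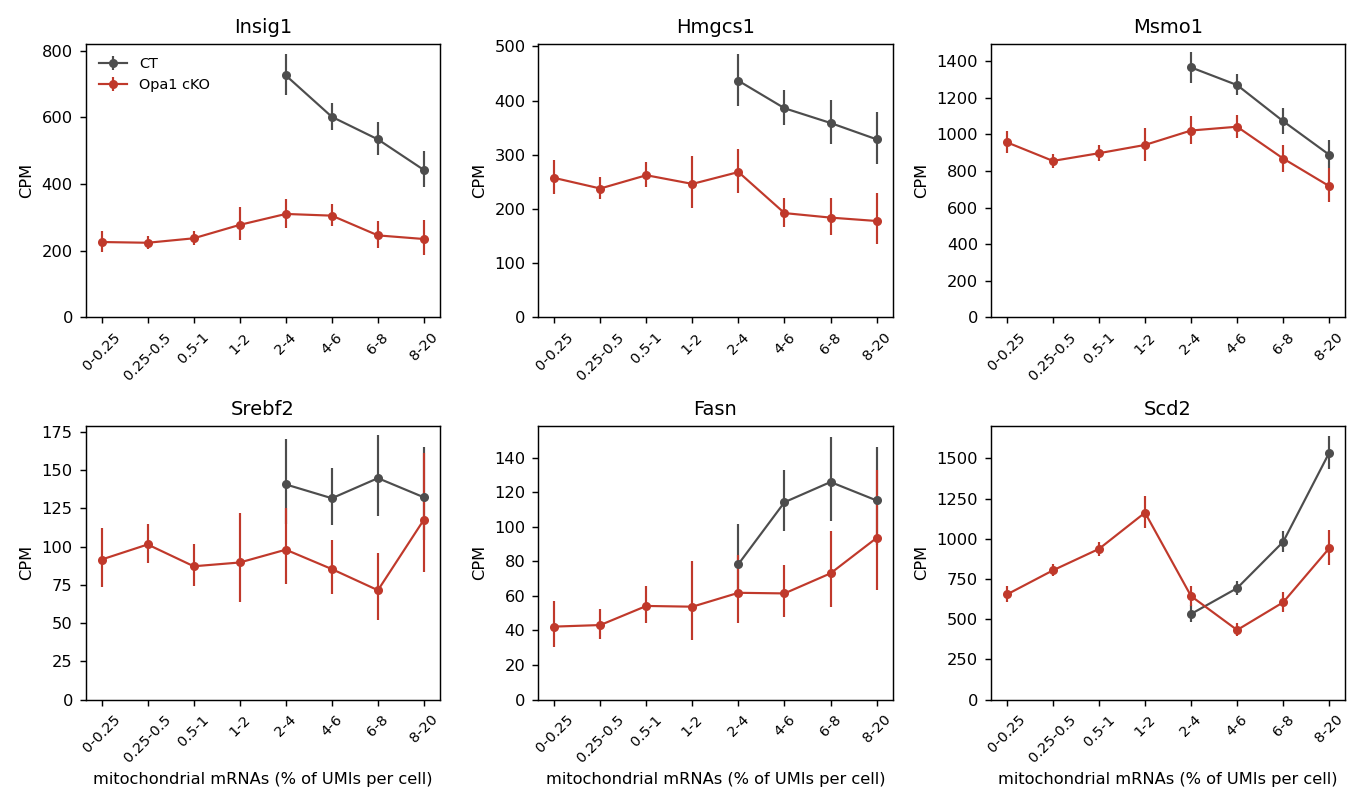
CPM of Insig1, Hmgcs1, Msmo1, Srebf2, Fasn and Scd2 in NSC pool-like cells by range of mitochondrial share, for CT and Opa1 cKO, as points with 95% counting intervals. Insig1 of Opa1 cKO stays between 224 and 310.4 CPM, under the lowest CT value of 442 CPM, while the Scd2 lines cross.

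Cluster 0, which both libraries share, gave a comparison free of the cluster that was almost wholly Opa1 cKO. With 1346 CT and 768 Opa1 cKO cells, the sterol sum was 4169 and 3065 CPM, a log2 ratio of -0.44 (-0.48 to -0.40), and 19 of 21 genes had a ratio below 0. Here 7 sterol genes were lower by 1.5-fold, Hmgcs1, Lss, Cyp51, Tm7sf2, Hsd17b7, Srebf2 and Insig1, and 1, Ebp, was higher, against 16.8% and 3.45% of 10392 genes. The fatty acid sum was 2122 and 1549 CPM, a ratio of -0.45 (-0.51 to -0.40), with 10 of 10 genes below 0 and 4, Acly, Fasn, Scd1 and Scd2, lower by 1.5-fold. That gap was wider than over all NSC pool-like cells, but the median log2 ratio of all genes was also lower, at -0.13 against 0.04. Ratios below 0 in cluster 0 were not counted over all genes. Within Opa1 cKO, cluster 1 over cluster 0 had a log2 ratio of -0.06 (-0.10 to -0.02) for the sterol sum and 0.33 (0.27 to 0.38) for the fatty acid sum, of which elongation and desaturation had 0.41 (0.35 to 0.47).

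NSC pool-like cells without a YFP UMI, 1837 in CT and 1491 in Opa1 cKO, came from a clustering without the YFP filter and are none of the cells described so far. Their sterol sum was 4244 CPM in CT against 3201 CPM in Opa1 cKO, with a log2 ratio of -0.41 (-0.44 to -0.37), and the ratio of the fatty acid sum was -0.25. Of the 31 genes, 29 had a ratio below 0, with 20 intervals below 0 and 1 above. Such ratios and intervals were not counted over all genes, whose median log2 ratio was 0.0016. By 1.5-fold or more, 10 of the 31 were lower and 1, Ebp at 0.74 (0.42 to 1.06), was higher. That stands against 11.7% and 8.96% of 10784 genes with 20 or more UMIs in these cells. Insig1 had 623 and 305 CPM, a ratio of -1.03, Hmgcs1 was at -0.78 and Fasn at -0.60. The median mitochondrial share of these cells was 5.44% in CT and 3.13% in Opa1 cKO, against 5.23% and 0.659% in the cells with a YFP UMI. All of these cells passed the YFP sort, and a cell without a YFP UMI can still hold YFP mRNA that was not captured.

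Across cell classes the sterol sum was highest in NSC pool-like cells. In CT, 16 of 21 sterol and 5 of 10 fatty acid genes had their highest CPM there, and in Opa1 cKO 13 and 5. The share of all genes highest in that class was not counted. Many of these leads overlapped the next class, among them those of Mvk, Pmvk and Mvd in CT. The branch sum of 4168 CPM in CT was followed by 2500.3 CPM (2321 to 2690) in oligodendrocyte-like and 1913 CPM (1656 to 2199) in activated NSC-like cells, and the lowest was 877 CPM (710.1 to 1071) in ependymal-like cells. Progenitor and neuron-like cells (1473 CPM, 1363 to 1590) overlapped mural-like cells (1273 CPM, 1106 to 1459), and endothelial-like cells (958 CPM, 836 to 1092) overlapped ependymal-like cells, while the other neighbours in the order did not overlap. Msmo1, Insig1, Fdft1 and Fads2 had NSC pool-like intervals clear of the next class in both libraries. For Insig1 the lead over oligodendrocyte-like cells went from 585 against 233 CPM in CT to 249.5 against 177 CPM in Opa1 cKO. Oligodendrocyte-like cells, which make myelin, led for Scd2 with 1184 CPM in CT against 962 CPM in Opa1 cKO, for Ebp with 132 and 115 CPM, and for Acaca with 125 and 57.4 CPM. Of these leads only that of Scd2 in Opa1 cKO was clear of the next class, since the intervals overlapped for Scd2 in CT and for Ebp and Acaca in both libraries. The order was read from cells clustered on all genes and is a description.

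**Figure D4:**
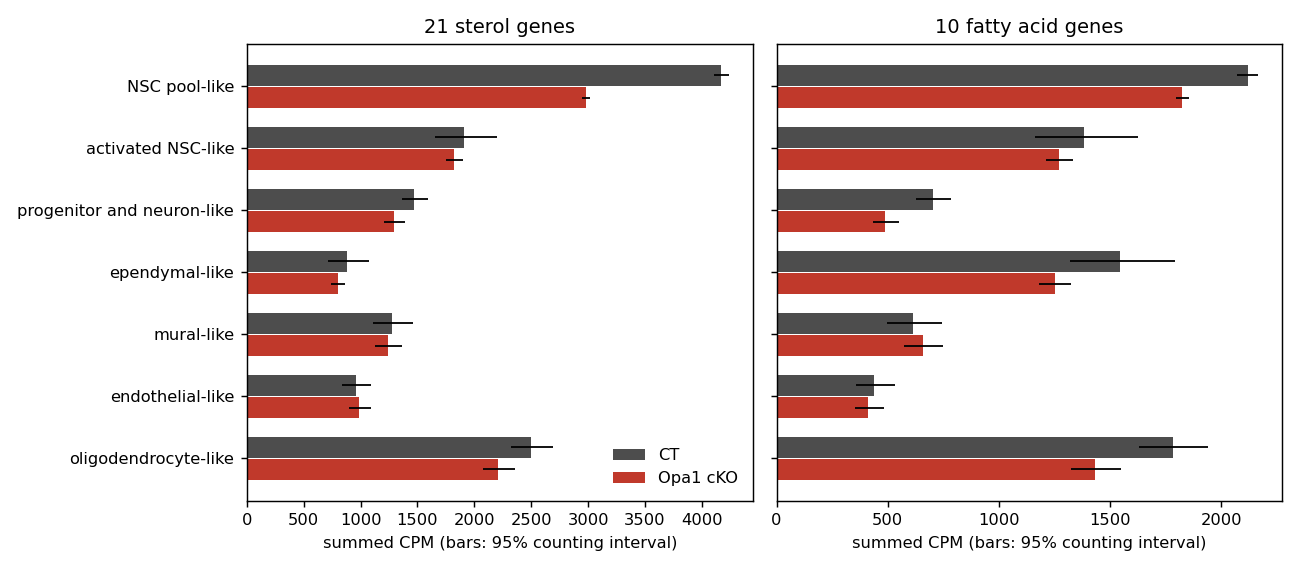
Summed CPM of the sterol and fatty acid genes in each cell class, for CT and Opa1 cKO, with 95% counting intervals. NSC pool-like cells have the highest sterol sum in both libraries and the widest sterol gap between them.

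Outside the NSC pool-like cells the sterol gap was small or within counting error with the settings reported here, and the classes were small. For activated NSC-like cells it was wider without the YFP filter, where the class held 105 CT and 403 Opa1 cKO cells. Relative to the median of all well-captured genes it was wider in activated NSC-like and in progenitor and neuron-like cells. For the latter the gap turned in sign with lineage cells clustered again, where the class held a different set of cells. A gap particular to NSC pool-like cells was not shown, since differences between classes were not tested. Activated NSC-like cells, with 39 CT and 432 Opa1 cKO cells, had 1913 and 1823 CPM, a log2 ratio of -0.07 (-0.28 to 0.15), with 1 of 18 measurable sterol genes lower and 2 higher against 23.8% and 23.7% of 7661 genes. This cluster also had 7 of 8 microglial markers past 1.5-fold, and without 2 Opa1 cKO cells of 5 or more microglial UMIs the ratio was -0.08. Its fatty acid sum was 1382 and 1269.9 CPM (-0.12, -0.37 to 0.13), while 4 of 10 fatty acid genes were lower and 0 higher, with a median log2 ratio of -0.55 and 2 intervals below 0. Those were Acly at -1.32 (-2.26 to -0.24) and Elovl6 at -1.80 (-3.04 to -0.35), and Fdft1 went the other way at 1.30 (0.15 to 2.76). Intervals that left out 0 were not counted over all genes of this class.

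Progenitor and neuron-like cells, 139 CT and 171 Opa1 cKO cells, had sterol sums of 1473 and 1294 CPM (-0.19, -0.34 to -0.04) and fatty acid sums of 704 and 490 CPM (-0.52, -0.76 to -0.29). Of 17 measurable sterol genes 4 were lower and 3 higher, and of 8 fatty acid genes 3 lower and 0 higher, against 19.8% and 15.8% of 7159 genes. The median of the sterol ratios was 0.16, opposite in sign to the sum. Both sums also turned in sign, to 0.08 and 0.04, when the lineage cells were clustered again. The class so named then held 169 CT and 423 Opa1 cKO cells, so it was not the same set of cells. Hmgcs1 had 207 and 87.7 CPM (-1.24, -1.75 to -0.74), Srebf2 -1.06 (-1.79 to -0.35), Idi1 -0.90 (-1.66 to -0.17) and Cyp51 -0.68 (-1.36 to -0.01). Acly had 129 and 52.9 CPM (-1.28, -1.95 to -0.64) and Elovl6 -1.07 (-2.07 to -0.11). Ebp was again higher in Opa1 cKO, at 22.2 and 51.3 CPM (1.21, 0.14 to 2.40).

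Ependymal-like cells, 39 CT and 244 Opa1 cKO cells, had sterol sums of 877 and 799.8 CPM (-0.13, -0.44 to 0.19) and fatty acid sums of 1543 and 1251 CPM (-0.30, -0.54 to -0.06). Of 12 sterol genes 2 were lower and 4 higher, and of 7 fatty acid genes 1 lower and 0 higher, against 17.7% and 22.3% of 7060 genes. Hmgcs1 was at -1.56 (-2.44 to -0.61), Insig1 at -1.23 (-2.27 to -0.06) and Fasn at -1.68 (-2.78 to -0.47), while Sqle was at 1.77 (0.37 to 3.66). Mural-like cells, 94 and 167 cells, had ratios of -0.03 (-0.28 to 0.21) and 0.10 (-0.24 to 0.46), with 2 of 11 sterol genes lower and 3 higher and 0 of 5 fatty acid genes past 1.5-fold, against 17.0% and 19.8% of 4540 genes. Their Srebf2 was at -1.29 (-2.53 to -0.07), Pmvk at 1.10 (0.09 to 2.26) and Sc5d had 12.2 and 52.6 CPM on only 2 CT UMIs. In endothelial-like cells, 55 and 90 cells, the ratios were 0.05 (-0.19 to 0.29) and -0.09 (-0.45 to 0.29), with 1 of 11 sterol genes lower and 1 higher and 1 of 5 fatty acid genes lower, against 19.4% and 13.3% of 5312 genes. Mural markers and globin genes also marked that cluster.

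Oligodendrocyte-like cells, 74 CT and 101 Opa1 cKO cells, are the class with mitochondrial shares alike in both libraries, at medians of 4.85% and 4.77%, and ISR sums of 1393 and 1494 CPM. Their sterol sum was 2500.3 and 2210.4 CPM (-0.18, -0.32 to -0.04) and their fatty acid sum 1781 and 1435 CPM (-0.31, -0.48 to -0.14). Of 16 sterol genes 1 was lower and 0 higher, and of 10 fatty acid genes 3 lower and 1 higher, against 17.2% and 15.1% of 4838 genes. Hmgcs1 had 385.5 and 229.5 CPM (-0.75, -1.15 to -0.34), Acaca was at -1.12 (-1.92 to -0.35), Acly at -0.76 (-1.48 to -0.05) and Fads1 at 1.47 (0.03 to 3.24). Lower Hmgcs1 thus stood in NSC pool-like, progenitor and neuron-like, ependymal-like and oligodendrocyte-like cells past 1.5-fold with an interval below 0. Hmgcs1 intervals of the libraries overlapped in activated NSC-like (164 and 145 CPM), mural-like (104 and 93.5 CPM) and endothelial-like cells (98.8 and 72.2 CPM). Differences between classes in these ratios were not tested.

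Other genes of the same pathways, from lists fixed with earlier results of these data known, were also read in NSC pool-like cells. Of 13 measurable genes of sterol metabolism and SREBP control outside the 31, 2 were lower and 0 higher by 1.5-fold, with a median log2 ratio of -0.25. Those were Mbtps1, a protease that activates SREBPs, at -0.74, and Cyp46a1, which turns cholesterol into 24-hydroxycholesterol, at -0.59. Of 5 genes of LXR signalling and sterol efflux 1 was lower, Abca1, a cholesterol exporter, at -0.70, and the median was -0.17. Of 24 other genes of fatty acid synthesis and activation 4 were lower and 2 higher, with a median of -0.13, and those lower with 100 or more UMIs were Hacd3 at -0.64 and Elovl2 at -0.59, both of chain elongation. These shares lie beside the 13.3% lower and 14.2% higher of all genes.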

How the data were processed

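The values are counts: the authors aligned reads to mm10 with Cell Ranger and deposited UMI counts per gene and barcode, without normalization. The submitters' processing notes name version 2.1.1 and the matrix header 3.1.0. Filters were over 600 and below 7500 genes, under 20% mitochondrial UMIs and 1 or more YFP UMIs. Kept cells were normalized with SCTransform and clustered on 8 dimensions at a resolution of 0.2 (Seurat 5.3.0, sctransform 0.4.2, R 4.3.3). Without the YFP filter 4186 and 6121 barcodes passed. Sums and intervals used scipy 1.17.1 with numpy 2.4.6 in python 3.11.15, next to scanpy 1.11.5, pandas 2.3.3, and matplotlib 3.10.9 for plots. The libraries were clustered without integration, while the study's supplement shows an integrated projection, so cluster 1, almost wholly Opa1 cKO, may not be a cluster of the study. A cluster was named for the class best represented in its 10 leading genes, ranked by fold against the mean CPM of all others (10 CPM added to both), provided that 3 or more markers of the class passed 1.5-fold. The form of that rule was set after the clusters had been seen, so names may differ from those of the study.

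Scrublet marked 2 of 1790 CT and 3 of 3764 Opa1 cKO cells, under 0.5%, which was taken as a caller that had not worked, and doublets were kept. UMIs were summed per library and class. CPM have exact Poisson, log2 ratios exact binomial-split and shares exact Clopper-Pearson intervals. Only the log2 ratio intervals were run on simulated data. Those data were Poisson counts without spread between cells, mice or libraries, so the run cannot speak to such spread. Ratios were read for genes with 20 or more UMIs in the cells compared. The 31 genes and the other lists were chosen with earlier results of these data known. All 31 are named, with full values for those with 300 or more UMIs in NSC pool-like cells or past 1.5-fold with an interval excluding 0. Genes of other lists are named where past 1.5-fold with 100 or more UMIs, at most 10 per list. Some genes of those lists are not reported here. Gene positions and overlaps come from GENCODE M21, promoters from RefSeq. Which annotation was used for counting is not given in the sources used here.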

Additional observations from a re-analysis of the deposited data

Results flagged for a closer look

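The log2 ratio of Opa1 cKO over CT had opposite signs in 2 classes for the sterol genes Fdft1, Pmvk, Sqle and Sc5d. Each of these intervals left out 0. Fdft1 was at -0.28 in NSC pool-like and 1.30 in activated NSC-like cells, where CT had 6 UMIs. Pmvk was at -0.35 in NSC pool-like and 1.10 in mural-like cells, where CT had 10 UMIs. Sqle was at -0.40 in NSC pool-like and 1.77 in ependymal-like cells, where CT had 4 UMIs. With 1 library per genotype the difference between the classes was not tested.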

How the results depend on the processing

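No paired analysis was possible because each genotype had 1 library, so no library was left out in turn either. There were 17 alternatives, not all of which gave values of single genes. Of 341 such values in NSC pool-like cells, 334 kept their direction. The other 7 were of Fads1, Cyp51 and Nsdhl, with log2 ratios of 0.03, -0.03 and -0.20 as reported, and the farthest was Fads1 at -0.45 in cluster 0 alone. Of 478 values of branch sums, medians and counts, 385 stayed within set limits. The limits were the counting interval for sums and 1.5 times for counts. Medians have no counting interval of their own, so the width of that of the branch sum was set around them.

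The log2 ratio of the sterol sum in NSC pool-like cells, -0.48 as reported, was -0.54 with clustering without mitochondrial, ISR and member genes and with CPM over UMIs outside mitochondrial genes, and -0.51 with lineage cells clustered again. It was -0.45 as a mean of per-cell CPM, -0.63 relative to the median of genes with 300 or more UMIs, -0.43 with cells thinned to 1500 UMIs and -0.44 in cluster 0 alone, an alternative chosen after seeing the data. The fatty acid sum, -0.22 as reported, was -0.26 over every barcode with over 200 genes, -0.27 over UMIs outside mitochondrial genes, -0.36 relative to the median, -0.17 thinned and -0.45 in cluster 0 alone.

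For Opa1 cKO cells at or above the mitochondrial cut over CT, the sterol sum was -0.49 without the YFP filter, -0.53 with clustering without those genes and -0.50 with lineage cells clustered again, and the fatty acid sum was -0.20 with a cut at 0.5% and -0.41 at 2%. For cells under over those at or above the cut, the sterol sum was -0.0021 without the YFP filter, -0.017 over every barcode, -0.015 with clustering without those genes, -0.017 with lineage cells clustered again, -0.015 as a mean of cells, -0.13 outside mitochondrial genes, -0.29 relative to the median and -0.0087 thinned. The fatty acid sum of that comparison was 0.087 outside mitochondrial genes and 0.28 with a cut at 2%, and it reversed to -0.074 relative to the median and to -0.034 with a cut at 0.5%.

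In activated NSC-like cells the sterol sum was -0.41 without the YFP filter and -0.33 relative to the median, the fatty acid sum -0.44 with log-normalization and -0.38 relative to the median, and the fatty acid median 0.17 with a minimum of 100 UMIs. In progenitor and neuron-like cells the sums reversed to 0.078 for sterol and 0.038 for fatty acid genes with lineage cells clustered again, where the fatty acid median was 0.15. That class held 169 CT and 423 Opa1 cKO cells, a different set from the 139 and 171 reported. In the class as reported the sterol sum was -0.34 relative to the median. Its sterol median reversed to -0.27 when thinned and to -0.090 with a minimum of 100 UMIs. Thinned fatty acid sums were -0.32 in mural-like and -0.50 in endothelial-like cells. The cause was not tested. Over every barcode and with lineage cells clustered again no activated NSC-like class was found, and the alternative without doublets was not run. Outside the NSC pool-like cells depth was the limit, with 39 CT cells in the activated NSC-like and in the ependymal-like class.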
